A study of Mus musculus with 21 samples.

Results

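Matrix metalloproteases (Mmp genes), membrane-anchored ADAM proteases (Adam), secreted ADAMTS proteases (Adamts) and their inhibitors, the TIMPs (Timp), were examined in mouse keratinocytes that had expressed human p16 for 6 months. Members were chosen by symbol, as any entry named Mmp, Timp, Adam or Adamts followed by a number, with or without the letter a or b. These were 79 of the 22050 entries in the expression table: 33 Adam, 19 Adamts, 23 Mmp and 4 Timp genes. Expression was compared between 4 p16 and 4 control samples. Mice of the first group were K5-rtTA/tet-GFP/tet-p16, in which doxycycline turns on human p16 and GFP in cells using the keratin 5 promoter, and control mice were K5-rtTA/tet-GFP, which turn on GFP alone. Both genotypes had a mixed FVB, C57Bl and 129sv background and received doxycycline from 3 weeks of age for 6 months, so that controls carried the activator, GFP and the drug too. Each sample held about 80000 GFP+ cells from dorsal skin, pooled from 3 mice, after cells with the surface markers CD140a, CD45 and CD31 had been gated out. As each sample is a pool, the spread between samples is that between pools and not between single mice.

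These 4 families act together at the cell surface and in the extracellular matrix. MMPs are zinc proteases that cut collagens, laminins and other matrix proteins. ADAMs release the outer parts of membrane proteins, among them growth factors, cytokine receptors and Notch, and ADAMTS proteases process procollagens and cut proteoglycans. TIMPs bind the active sites of these enzymes. In the epidermis they take part in growth factor release, in turnover of the basement membrane and in keratinocyte migration over wounds, and several MMPs are known as secreted factors of senescent cells. Most of these enzymes are made as inactive precursors, so an RNA level is not a level of activity.

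Of the 79 members, 31 had no read in any sample, 16 had reads but a mean below 1 normalized read count, and 32 were tested. A normalized read count is the reads on a gene divided by a size factor for the sample, and 1 read was worth between 0.74183 and 1.5278 of it. The genes with no read in any sample, for which a count of 0 allows up to 3 reads per sample, were Adamts3, Adamts6, Adamts12 and Adamts16, 8 Mmp genes (Mmp1a, Mmp1b, Mmp7, Mmp8, Mmp20, Mmp21, Mmp25 and Mmp27) and 19 Adam genes. These were Adam1a, Adam1b, Adam2, Adam3, Adam5, Adam7 and Adam18, known from the testis and epididymis, and Adam6a, Adam6b, Adam20, Adam24, Adam25, Adam26a, Adam26b, Adam29, Adam30, Adam33, Adam34 and Adam39. The 16 below the filter were Adam4, Adam11, Adam21, Adam22, Adam23, Adam32, Adamts4, Adamts8, Adamts13, Adamts15, Mmp10, Mmp12, Mmp16, Mmp19, Mmp23 and Timp1. Each of these 16 had at most 3 reads in every sample. Of the 32 tested members, 8 had fewer than 30 reads over all samples and 14 had a mean of at least 10.

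The libraries held between 1760953 and 3414362 reads on genes. Basal keratinocyte markers (7 of 7 genes detected) summed to between 31880.9 and 52881.9 normalized read counts in controls and between 32055.6 and 36674.6 in p16 samples. The hair-follicle stem cell markers Cd34, Lgr5, Lhx2, Sox9, Nfatc1 and Tcf7l1 (6 of 6 detected) summed to between 2505.0 and 3227.7 in controls and between 1017.8 and 1816.1 in p16 samples, without overlap. Melanocyte markers (6 of 6) lay between 132.7 and 520.1 against 48.4 and 142.1, and Schwann cell markers (4 of 4) between 17.5 and 45.9 against 8.8 and 14.9. Fibroblast markers (7 of 8, Lum at 0 and Pdgfra at 3.5 or less) lay between 70.9 and 142.1 against 72.4 and 282.8, immune markers (7 of 8, Lyz2 at 0) between 111.6 and 130.9 against 110.8 and 160.9, and endothelial markers (3 of 6, with Cdh5, Kdr and Emcn at 0) at 8.0 or below. In these bulk samples fewer cells of a type and less RNA per cell cannot be told apart. The human p16 transcript had 1 to 3 reads in each control library and 13, 18 and 9 reads in p16 replicates 2, 3 and 4, but only 2 in the library labelled p16 replicate 1. The labels of replicate 3 in both groups describe the library preparation in other words than those of the other samples.

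Among the 32 tested members, 1 was higher and 1 was lower in p16 cells by limma at an adjusted p under 0.05. Both were inhibitors: Timp3 rose and Timp2 fell. Over all 12782 genes tested, 1.24% were called higher and 2.61% lower. The 2 called members make 6.25% of those tested, against 3.86% of all genes. On the recovered reads edgeR called 1.50% of 10700 genes higher and 2.79% lower, and DESeq2 called 1.48% of 12705 higher and 2.79% lower. At an unadjusted p under 0.05, 4 members were higher (Timp3, Mmp2, Adam8 and Adamts14) and 2 lower (Timp2 and Adamts5), which is 18.8% of the members against 15.9% of all genes (7.02% higher and 8.93% lower). The median log2 fold change, p16 minus control, was -0.10 over the 32 members and -0.003 over all genes tested. The log2 fold change lay above 0 for 10 members and below 0 for 22, where 6340 of all genes tested lay above 0 and 6442 below. Among the 22 were estimates close to 0, such as -0.011 for Mmp28 and -0.041 for Adam10. By family the median was -0.13 for 8 Adam genes, -0.39 for 11 Adamts genes and -0.08 for 10 Mmp genes. The 3 tested Timp genes are given one by one.

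**Figure D1:**
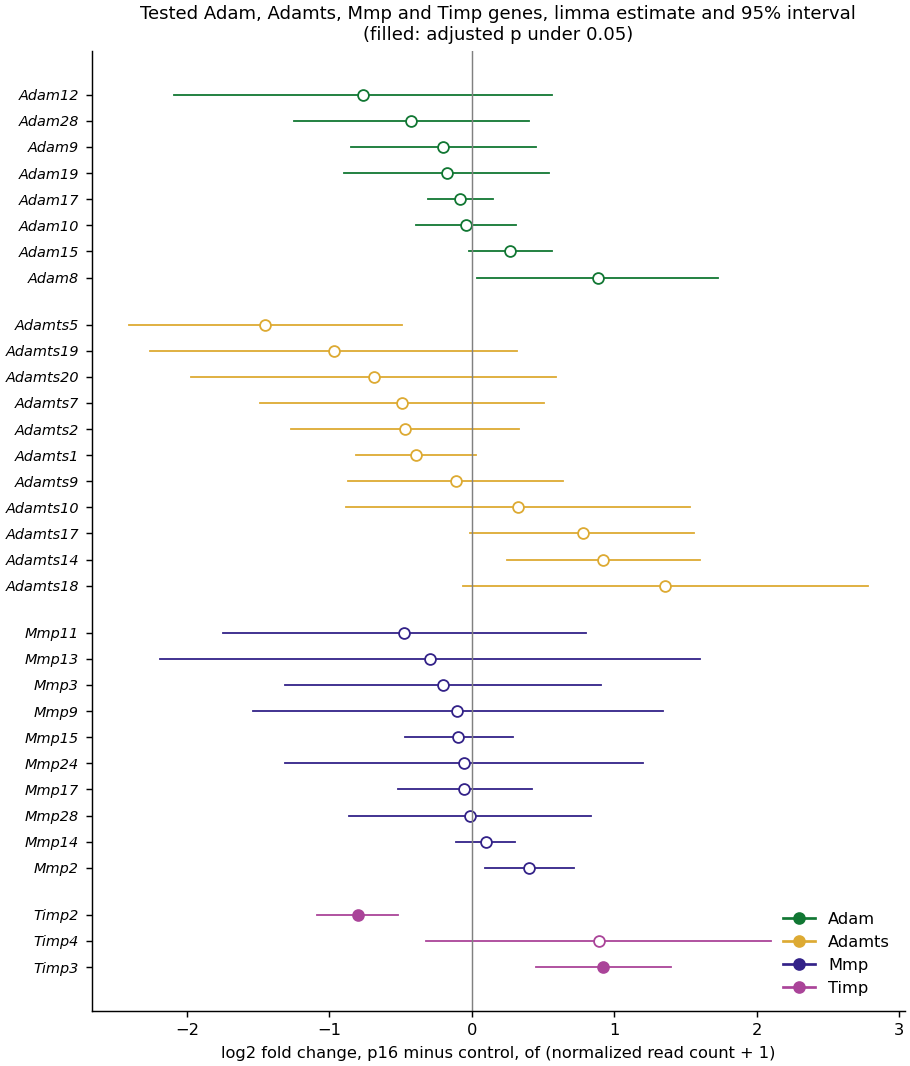
Log2 fold change (p16 minus control, of normalized read count + 1, horizontal axis) of the 32 tested members, grouped and coloured by family, with points for the limma estimate and lines for its 95% interval. Filled points have an adjusted p under 0.05: Timp2 at -0.80 and Timp3 at 0.92.

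Timp2, the inhibitor that also joins pro-Mmp2 to Mmp14 at the cell surface, lies on chromosome 11 (118301069 to 118355740, minus strand, GRCm38). Its normalized read counts were 550.4, 441.5, 504.5 and 568.3 in the controls and 339.0, 307.6, 325.4 and 221.2 in the p16 samples, here and below in the order of the replicate numbers. Every p16 sample lay below every control sample. The means were 516 ± 56.6 and 298 ± 53.0 (SD, n = 4 each), a ratio of 0.578. The log2 fold change was -0.80 (SE 0.13, 95% interval -1.09 to -0.52, limma adjusted p = 0.00354), and the exact two-sided permutation test of the values gave p = 0.0286, the smallest that 4 against 4 samples allow. Timp2 was also called by edgeR (adjusted p = 0.00420) and DESeq2 (adjusted p = 6.38e-06), and in each of the 8 limma fits that left out 1 sample (adjusted p from 0.00137 to 0.0189). Cep295nl, a gene within Timp2 on the same strand, had mean values of 2.40 in controls and 1.65 in p16 samples.

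Timp3, which is bound to the matrix and known to inhibit Adam17, Adam10 and several ADAMTS proteases in addition to MMPs, lies on chromosome 10 (86300372 to 86349506, plus strand). It read 646.1, 469.7, 323.2 and 759.3 in the controls and 1378.4, 980.6, 868.9 and 821.4 in the p16 samples. All 4 p16 samples lay above all 4 controls, though p16 replicate 4 and control replicate 4 were close. The means were 550 ± 192 and 1012 ± 253 (SD, n = 4 each), a 1.84-fold difference. The log2 fold change was 0.92 (SE 0.22, 95% interval 0.45 to 1.40, limma adjusted p = 0.0313; exact permutation p = 0.0286). edgeR called it (adjusted p = 0.0437) and DESeq2 did not (adjusted p = 0.0801). It was lost on leaving out control replicate 2 (adjusted p = 0.0865), control replicate 3 (0.0689), p16 replicate 1 (0.113), p16 replicate 2 (0.0543) or replicate 3 of both groups (0.0887), while the estimate kept its direction. Timp3 lies within Syn3 on the opposite strand, which had means of 6.42 in controls and 8.12 in p16 samples, and whether the authors' counting used strand is not given in the sources used here.

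The ratio of Timp3 to Timp2 within a sample was 1.17, 1.06, 0.641 and 1.34 in the controls and 4.07, 3.19, 2.67 and 3.71 in the p16 samples. The ratio was formed after the values of both genes were known and is a description with no test. It compares a relative balance between samples, as the counts are not scaled by transcript length. Hair-follicle stem cell markers were also lower in every p16 sample than in every control sample, as were Schwann cell markers, and melanocyte markers were lower than all controls in 3 of 4 p16 samples. The part of these markers in the Timp2 and Timp3 results was not tested.

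**Figure D2:**
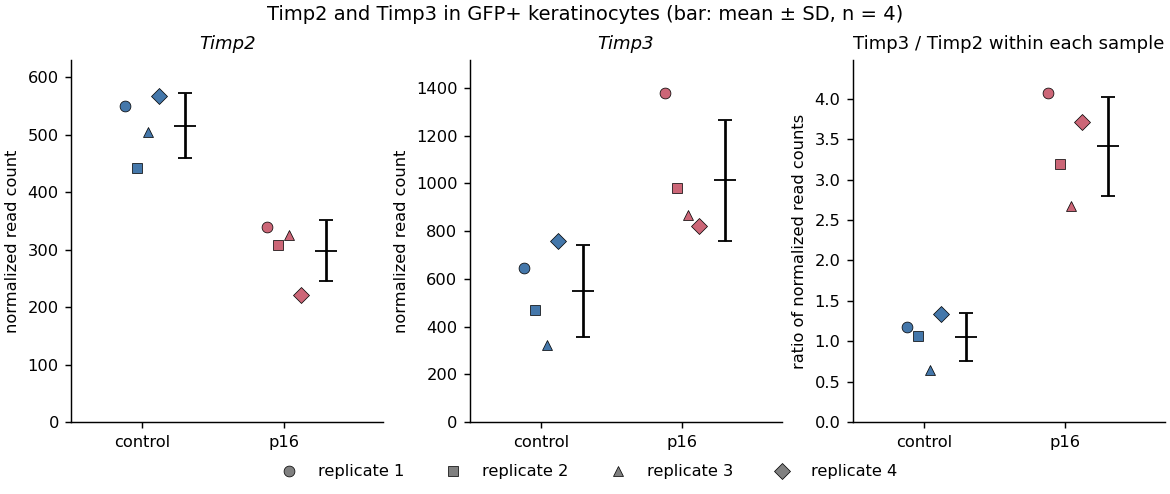
Normalized read counts of Timp2 and Timp3 and their ratio within each sample (vertical axes, from 0) in control and p16 samples, with marker shapes for replicate numbers and bars for mean ± SD (n = 4). Timp2 spans 441.5 to 568.3 in controls and 221.2 to 339.0 in p16 samples, Timp3 spans 323.2 to 759.3 and 821.4 to 1378.4, and the ratio spans 0.641 to 1.34 and 2.67 to 4.07.

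The other inhibitors had few reads. Timp4 read 1.5, 0.0, 0.8 and 0.0 in the controls and 0.8, 1.6, 5.3 and 0.8 in the p16 samples (limma adjusted p = 0.492), and every control was at or below 3 reads. Timp1, an inhibitor often measured in wounds and inflamed skin, reached 3.1 in control replicate 4 and stayed at or below 0.9 elsewhere. Timp4 lies opposite Syn2, which had means of 9.88 and 14.68. Timp4 had 13 reads in all and passed the filter through its p16 values, and Timp1 was not tested.

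**Figure D3:**
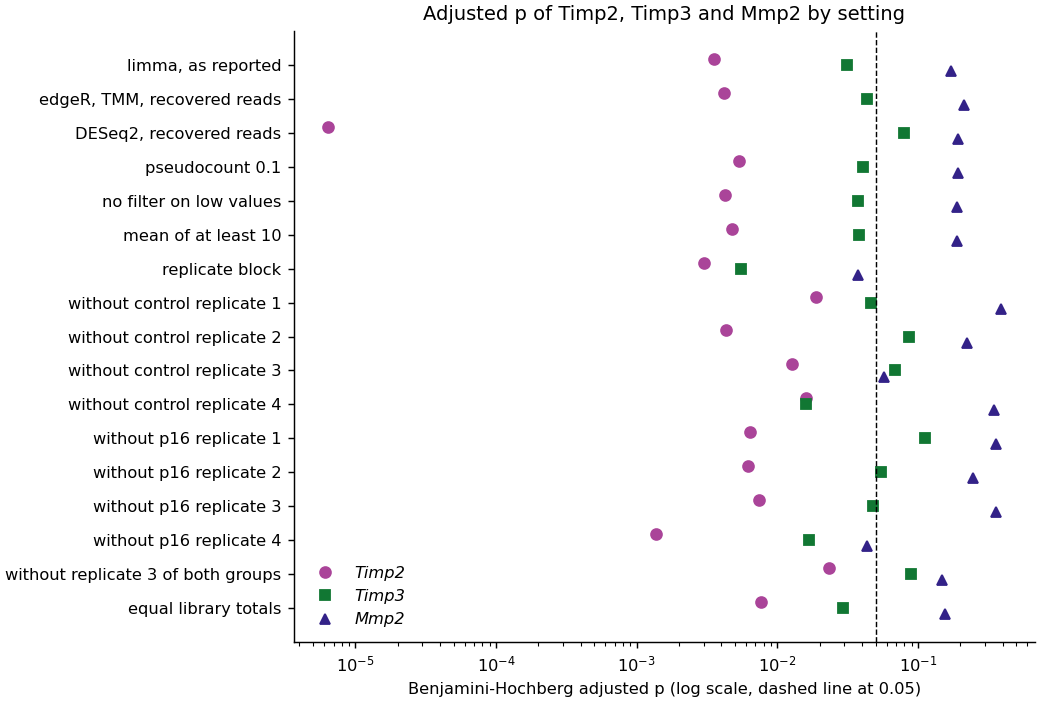
Benjamini-Hochberg adjusted p (horizontal axis, log scale, dashed line at 0.05) of Timp2, Timp3 and Mmp2 in the reported limma fit and in 16 other settings (vertical axis). Timp2 lies between 6.38e-06 and 0.0232 in the other settings, Timp3 between 0.00549 and 0.113, and Mmp2 between 0.0376 and 0.389.

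No Mmp gene was called. Mmp2, the gelatinase that is activated by Mmp14 with the help of Timp2, had the smallest adjusted p among them. It read 279.7, 342.7, 430.1 and 282.6 in the controls and 455.7, 445.0, 508.9 and 347.0 in the p16 samples, so that 3 of 4 p16 samples lay above all controls. The means were 334 ± 70.5 and 439 ± 67.5 (SD, n = 4 each), a 1.32-fold difference that did not pass (log2 fold change 0.40, 95% interval 0.09 to 0.72, limma adjusted p = 0.173; exact permutation p = 0.0571). Without p16 replicate 4, the lowest of its group, the adjusted p was 0.0432, and the other 7 fits that left out 1 sample gave 0.0571 to 0.389.

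Mmp14, the membrane-type protease that activates Mmp2, read 273.7, 309.3, 278.1 and 320.8 in the controls and 323.0, 332.6, 293.5 and 313.3 in the p16 samples. The groups overlapped, and the 95% interval of the fold on the scale of the fit was 0.928 to 1.23 (limma adjusted p = 0.704). The other membrane-type enzymes with a mean of at least 10 were Mmp15 (between 42.9 and 70.3 over all samples, limma adjusted p = 0.871) and the lipid-anchored Mmp17 (between 27.6 and 50.1, limma adjusted p = 0.946). The groups overlapped at both. Their 95% intervals of the fold were 0.720 to 1.22 and 0.695 to 1.34, so a change of the size seen for Timp2 lay outside both.

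Mmp3 (stromelysin-1), Mmp9 (gelatinase B) and Mmp13 (collagenase-3), which keratinocytes are known to make at wound edges, were chosen for description after their values were seen. Mmp3 read 4.5, 5.1, 21.7 and 9.2 in the controls and 3.2, 3.9, 14.2 and 13.2 in the p16 samples. Mmp9 read 3.0, 1.3, 16.7 and 1.5 in the controls and 2.4, 1.6, 12.4 and 1.6 in the p16 samples. Mmp13 read 0.0, 0.0, 10.9 and 6.1 in the controls and 0.0, 0.8, 10.6 and 0.8 in the p16 samples. All 3 were highest in replicate 3 of both groups, and their adjusted p values between groups were 0.907, 0.969 and 0.922 by limma. Both replicate 3 values exceeded the other 6 samples at these 3 of 32 members (9.38%) and at 342 of all genes tested (2.68%), while no member did so for replicate 1, 2 or 4, where 2.17%, 3.43% and 5.27% of all genes did. The replicate 3 samples are those with the other wording of the library protocol. Their basal marker sums were 35191.9 and 35541.0, and their differentiated keratinocyte marker sums were 9171.2 and 8927.8, where the other samples lay between 6705.6 and 10353.4. The part of these differences in the Mmp values was not tested. The stromelysin-like Mmp11, the epilysin Mmp28 and Mmp24 had means of at most 7.50 in either group and were not called. Mmp11 and Mmp24 overlap the more strongly counted genes Chchd10 and BC029722 on the opposite strand, so their few reads are uncertain.

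**Figure D4:**
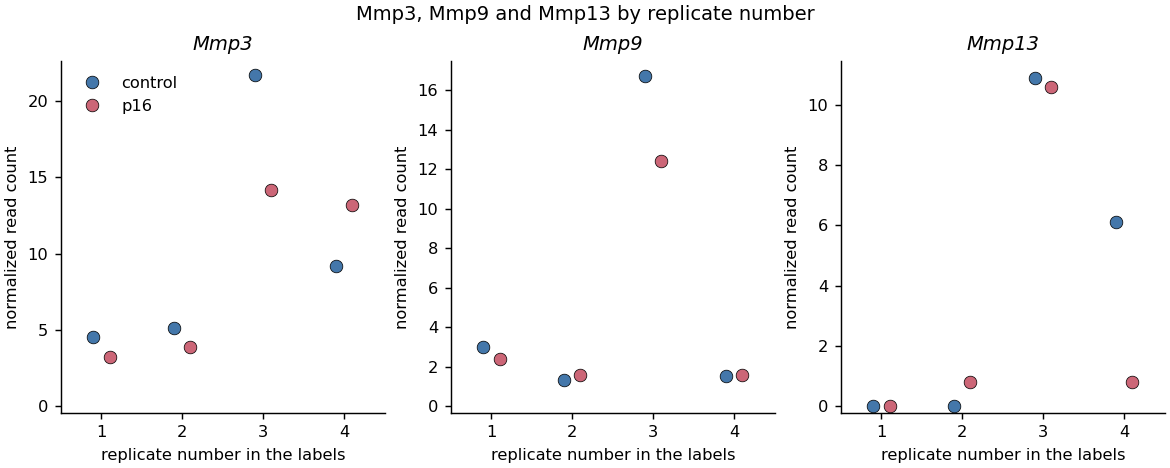
Normalized read counts (vertical axes) of Mmp3, Mmp9 and Mmp13 by the replicate number in the labels (horizontal axis), with blue points for control and red for p16 samples. Replicate 3 of both groups is highest for each gene, at 21.7 and 14.2, 16.7 and 12.4, and 10.9 and 10.6.

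The bases before the transcription start of Mmp3 and Mmp13 are shown because both genes were high in the same samples and both stretches hold the same 2 motifs. They are RefSeq windows of 250 bases before the start on GRCm38.p6, plus strand, with matches to the AP-1 motif TGANTCA and to the TATA box TATAAA, on either strand, in capitals. The Mmp3 window is chr9:7445572-7445821 and the Mmp13 window chr9:7272264-7272513.
Mmp3: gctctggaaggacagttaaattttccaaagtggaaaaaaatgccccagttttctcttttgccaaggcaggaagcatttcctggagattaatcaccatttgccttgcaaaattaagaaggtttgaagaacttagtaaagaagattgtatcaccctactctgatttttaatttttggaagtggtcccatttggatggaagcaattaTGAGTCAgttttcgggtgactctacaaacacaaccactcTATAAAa
Mmp13: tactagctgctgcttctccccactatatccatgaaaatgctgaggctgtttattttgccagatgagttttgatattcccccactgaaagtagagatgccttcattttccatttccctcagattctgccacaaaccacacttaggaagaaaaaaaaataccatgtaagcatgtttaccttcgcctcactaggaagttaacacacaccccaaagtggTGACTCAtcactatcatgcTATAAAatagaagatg
The first base of the AP-1 match lay 46 bases before the start of Mmp3 and 35 bases before that of Mmp13, and the first base of the TATA match 7 and 16 bases before it. RefSeq windows were found for 49 of the 79 members, 22 of them tested. The AP-1 letters were in 3 of these 22 (13.6%: Adam19, Mmp3 and Mmp13), in 5.7% of the tested genes with a window and in 7.8% of all 27025 genes with one. TATAAA was in 3 of 22 (13.6%: Adamts1, Mmp3 and Mmp13), against 8.0% and 14.3%. The GC box GGGCGG, on either strand, was in 17 of 22 (77.3%), Timp2 and Timp3 among them, against 64.2% and 35.4%. The Timp2 window (chr11:118355412-118355661) lay wholly within the gene span given above, and the Timp3 window (chr10:86300162-86300411) ran past the start given above. Their GC boxes and shares of G or C are thus not of bases before those starts alone. These shares were 68.0% and 65.6% for Timp2 and Timp3. For Mmp3 and Mmp13, whose windows ended before the start, they were 37.6% and 40.4%. Mmp9, also highest in replicate 3 of both groups, had no window. Adam19 and Adamts1, the other tested members with one of the 2 motifs, were not highest in replicate 3 of both groups. A match describes these letters and is not a measured binding site, and the part of the motifs in the Mmp values was not tested.

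No Adam gene was called. Adam17, the enzyme that releases TNF, TGF alpha and amphiregulin from the cell surface, read 185.5, 200.2, 199.6 and 181.8 in the controls and 167.1, 196.8, 164.0 and 199.8 in the p16 samples. Its 95% interval of the fold was 0.806 to 1.11 (limma adjusted p = 0.797). Adam17 overlaps Iah1 on the opposite strand, which had means of 90.28 and 76.2, so part of its reads is uncertain. Adam10, which cuts Notch receptors and E-cadherin, read 135.0, 143.7, 153.7 and 132.9 in the controls and 167.9, 146.0, 155.2 and 92.9 in the p16 samples, with p16 replicate 4 lowest and p16 replicate 1 highest of all 8. The interval of its fold was 0.764 to 1.24 (limma adjusted p = 0.944).

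Adam15, which carries an integrin-binding motif in its disintegrin domain, was the only other tested member besides Timp2 and Timp3 whose groups did not overlap. It read 99.4, 115.5, 115.3 and 97.8 in the controls and 115.9, 118.7, 123.2 and 162.8 in the p16 samples, and control replicate 2 and p16 replicate 1 were 115.5 and 115.9. The means differed 1.22-fold, and the difference did not pass (log2 fold change 0.27, 95% interval -0.02 to 0.56, limma adjusted p = 0.349; exact permutation p = 0.0286). Groups did not overlap at 3 of 32 members (9.38%), and at 9.83% of all genes tested (4.19% with p16 above and 5.63% with p16 below). Adam8, known from leukocytes and from inflamed epithelia, read 5.9, 16.7, 38.4 and 12.2 in the controls and 26.4, 30.4, 26.6 and 30.4 in the p16 samples. The p16 samples lay close together, and control replicate 3 exceeded all of them (log2 fold change 0.89, 95% interval 0.04 to 1.73, limma adjusted p = 0.282). Without control replicate 3 the log2 fold change was 1.33 (limma adjusted p = 0.0410). The log2 fold change was 0.49 without control replicate 1 (adjusted p = 0.594), and Adam8 was not called by limma without replicate 3 of both groups (adjusted p = 0.0844), by edgeR (0.523) or by DESeq2 (0.649). Of the immune markers, Lyz2 was at 0 and Ptprc at 1.6 or below in every sample. Ptprc had means of 0.7 in controls and 0.6 in p16 samples, and Cd3e of 1.35 and 0.8. Cd207 had means of 0.38 in controls and 3.05 in p16 samples without overlap, and Itgam of 0.98 and 2.02. Cd52 had means of 4.97 and 5.5, H2-Aa of 27.0 and 31.82, and Cd74 of 84.62 and 94.1. The part of immune cells in the Adam8 values was not tested. Adam9, Adam12, Adam19 and Adam28 had estimates below 0 that did not pass.

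**Figure D5:**
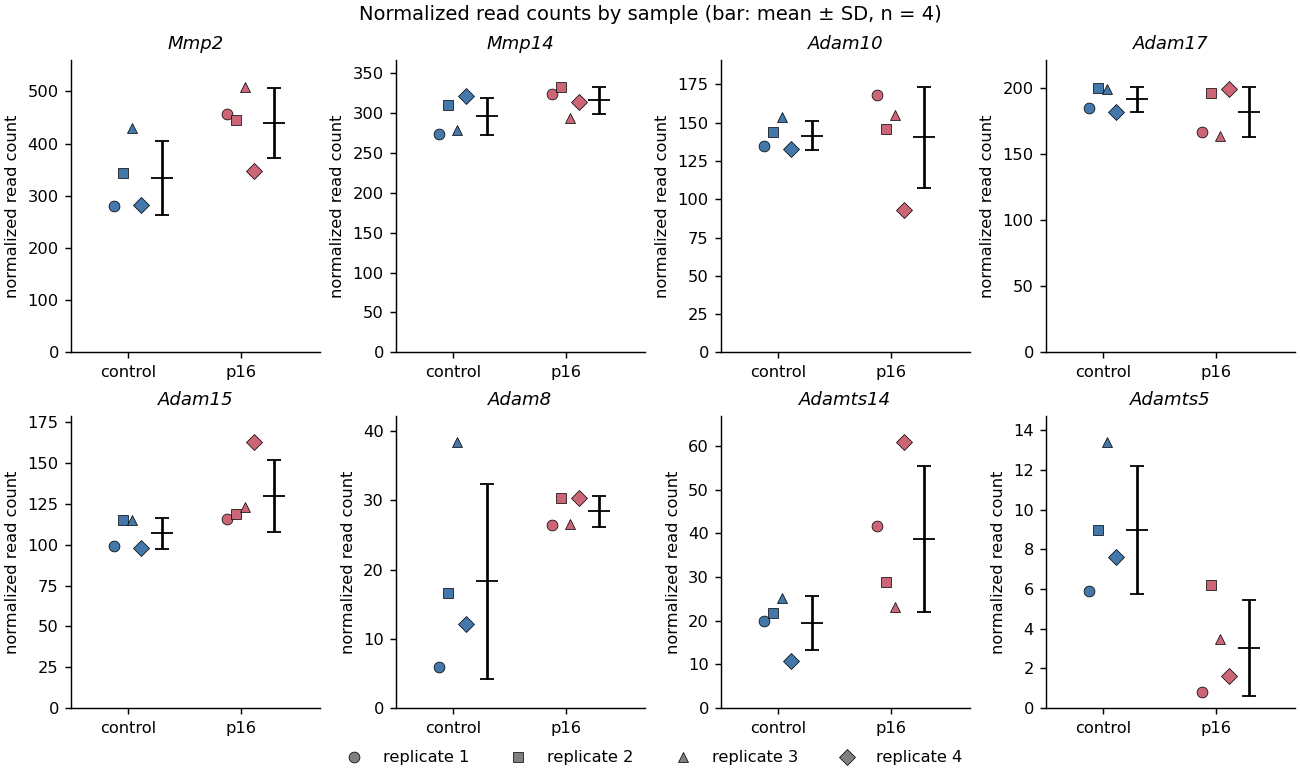
Normalized read counts (vertical axes, from 0) of 8 protease genes in control and p16 samples, with marker shapes for replicate numbers and bars for mean ± SD (n = 4). None was called by limma, and of these 8 the groups were free of overlap at Adam15 alone.

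No Adamts gene was called. Adamts14, a procollagen N-propeptidase, had a mean of 19.4 ± 6.17 in controls and 38.6 ± 16.7 in p16 samples (SD, n = 4 each). It read 20.0, 21.8, 25.1 and 10.7 in the controls and 41.6, 28.9, 23.1 and 60.8 in the p16 samples, where only p16 replicate 3 fell within the control range. The 1.99-fold difference did not pass (log2 fold change 0.92, 95% interval 0.25 to 1.60, limma adjusted p = 0.141; exact permutation p = 0.0571), and leaving out any 1 sample gave adjusted p from 0.0843 to 0.317. Adamts2, which has the same activity on procollagen, had means of 9.12 and 5.75 (limma adjusted p = 0.610).

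Adamts1, a protease of versican and aggrecan, read 78.6, 74.4, 85.2 and 96.3 in the controls and 51.2, 85.1, 79.8 and 46.0 in the p16 samples, of which p16 replicates 1 and 4 lay below all controls (log2 fold change -0.39, limma adjusted p = 0.353). Adamts9, of the same function, read 31.9, 21.8, 22.6 and 22.9 against 26.4, 41.4, 25.7 and 9.0. Its log2 fold change was -0.11 (limma adjusted p = 0.925) and the p16 values spread to both sides of the controls. Adamts17, linked to fibrillin microfibrils, read 4.5, 6.4, 3.3 and 7.6 against 11.2, 12.5, 12.4 and 4.9, with 3 of 4 p16 samples above all controls (log2 fold change 0.78, limma adjusted p = 0.317).

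A pair of low-count Adamts genes was added after the values were seen. Adamts5, an aggrecanase, read 5.9, 9.0, 13.4 and 7.6 in the controls and 0.8, 6.2, 3.5 and 1.6 in the p16 samples, from 51 reads in all. Only p16 replicate 2 reached the control range, and the log2 fold change of -1.45 did not pass (95% interval -2.41 to -0.49, limma adjusted p = 0.0982). Without p16 replicate 2 the adjusted p was 0.0391, the other 7 fits that left out 1 sample gave 0.131 to 0.269, and leaving out replicate 3 of both groups gave 0.282. Adamts18 had at most 2 reads in each control, with normalized counts of 1.5, 0.0, 1.7 and 0.0, and read 4.0, 6.2, 7.1 and 0.0 in the p16 samples. The p16 mean, itself from few reads, was 1.31 times the limit of 3 reads per control library. The 95% interval of the fold on the scale of the fit was 0.958 to 6.86, which includes no change. The difference did not pass (limma adjusted p = 0.340). Adamts18 passed the filter through its p16 values. Leaving out p16 replicate 4, the sample at 0 that went against the difference, gave an adjusted p of 0.0469, and the other 7 such fits gave 0.319 to 0.588. The Schwann cell marker sums given above did not overlap between the groups, and their part in the counts of such low genes was not tested.

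A list of 81 genes that activate, assist, resemble or are cut by these proteases was set beside them. It was made with earlier results of these data known, so its shares and median are a description with no test of the list. Of 63 tested, 3 were higher and 3 lower in p16 cells by limma (9.52%, against 3.86% of all genes tested), and their median log2 fold change was 0.15, against -0.003 over all genes. At an unadjusted p under 0.05, 14 were higher and 8 lower, where 7.02% of all genes were higher and 8.93% lower. Among the partners and activators of the proteases limma called 0 of 4 proprotein convertases, which cleave the precursors of ADAMs and MMPs, 0 of 8 partners of Adam17 and Adam10 (iRhoms, Frmd8 and tetraspanins) and 0 of 5 genes of the plasminogen system. Furin had means of 499 ± 37.7 and 443 ± 16.2 (SD, n = 4 each, limma adjusted p = 0.389). Serpine2, an inhibitor of plasminogen activators and thrombin, was added after its values were seen. It read 35.6, 20.5, 25.1 and 26.0 in the controls and 65.6, 53.9, 31.0 and 54.3 in the p16 samples, with p16 replicate 3 inside the control range. The 1.91-fold difference missed the threshold by limma (adjusted p = 0.0597) and edgeR (adjusted p = 0.0595) and passed by DESeq2 (adjusted p = 0.0396). Of the 8 limma fits that left out 1 sample, Serpine2 was called in 1, that without p16 replicate 3 (adjusted p = 0.0157). The others gave adjusted p up to 0.199, without p16 replicate 1. Limma without replicate 3 of both groups gave an adjusted p of 0.0444.

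Of 5 tested ADAMTS-like proteins, which lack the protease domain, 1 passed. Adamtsl4, which binds fibrillin, read 94.2, 87.3, 46.8 and 48.9 in the controls and 28.8, 31.2, 23.1 and 37.0 in the p16 samples, without overlap (log2 fold change -1.13, SE 0.24, limma adjusted p = 0.0185). The call was lost without control replicate 1 (adjusted p = 0.0727), control replicate 2 (0.0580), p16 replicate 1 (0.0549) or p16 replicate 3 (0.0539). Of 17 tested matrix substrates, Col7a1 and Dcn passed. Col7a1, the collagen of the anchoring fibrils beneath the epidermis, read 203.3, 204.1, 203.8 and 229.2 in the controls and 298.2, 301.4, 259.8 and 356.0 in the p16 samples, a 1.45-fold rise without overlap (limma adjusted p = 0.0158; 0.0547 without control replicate 1 and 0.0512 without p16 replicate 1). Dcn, the proteoglycan decorin, read 5.9, 2.6, 4.2 and 10.7 against 85.6, 89.8, 203.0 and 36.2 (limma adjusted p = 2.33e-04). Dcn is also one of the fibroblast markers, and of the others Col1a1 had means of 1.78 in controls and 5.67 in p16 samples and Pdgfra of 0.7 and 1.68, both highest in p16 replicate 3 as Dcn was. Col1a2 had means of 10.4 and 2.67 and Col3a1 of 1.85 and 0.600, Lum was at 0, Dpt at 1.3 or below, and Fbln1 read between 60.1 and 116.1 in controls and between 29.6 and 62.1 in p16 samples. The part of fibroblasts in the Dcn value was not tested.

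Of 21 tested membrane proteins known to be shed, 1 rose and 2 fell. Epgn, the EGF receptor ligand epigen, read 153.6, 116.8, 120.3 and 140.6 in the controls and 324.6, 181.9, 205.7 and 215.4 in the p16 samples, a 1.75-fold rise without overlap (limma adjusted p = 0.0158; 0.0502 without control replicate 3 and 0.0805 without replicate 3 of both groups). Sdc1, the cell surface proteoglycan syndecan-1, fell to 0.714 of the control mean. Its means were 2996 ± 448 and 2139 ± 217 (SD, n = 4 for both; adjusted p = 0.0322 by limma), and the call was lost without control replicate 3 (0.0960) or 4 (0.0918), without p16 replicate 1 (0.113), 2 (0.0760) or 3 (0.0941), and without replicate 3 of both groups (0.216). F11r, a tight junction protein, read 290.1, 278.5, 339.1 and 267.4 against 171.1, 187.4, 150.7 and 271.3, with p16 replicate 4 inside the control range (limma adjusted p = 0.0397). Of the fits that left out 1 sample, F11r was called in that without p16 replicate 4 (adjusted p = 8.57e-04), and the others gave adjusted p from 0.0614 without control replicate 4 to 0.134 without p16 replicate 1. It was not called without replicate 3 of both groups (0.263) or with equal library totals (0.0568). The other EGF receptor ligands tested, Hbegf, Tgfa, Areg, Ereg and Btc, did not pass.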

How the data were processed

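mRNA was profiled in 8 samples of sorted GFP+ keratinocytes from dorsal skin, 4 p16 and 4 control, obtained in 3 independent experiments. A second series of 13 samples in the labels was not analysed here. The authors sequenced 3′ ends by an adapted CEL-Seq2 method. They used Cutadapt for trimming and TopHat2 for alignment (GRCm38) and, per the submitters' processing notes, HTSeq for counting and DESeq2 for normalization. The annotation version and the use of strand or molecular identifiers are not given in the sources used here. The deposited signal values are counts divided by a size factor per sample and rounded to 1 decimal. The authors' group means, test score, p-value and adjusted p-value columns were not used. Dividing by the value of 1 read gave whole reads for 100.0% of the values (within 0.05 normalized units).

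Groups were taken from the labels. The main test was limma 3.58.1 (moderated by eBayes with a trend, R 4.3.3) on log2(normalized value + 1). The 12782 genes whose mean reached 1 were tested, with Benjamini-Hochberg adjustment over all of them and a call at 0.05. Fold changes on this scale understate the change of low genes. For single genes the normalized values were also compared by an exact permutation test (two-sided). A group was at the limit of detection where none of its samples exceeded 3 reads, a limit for counting error only. The test was run on simulated data first. Alternatives were edgeR 4.0.16 (TMM) and DESeq2 1.42.0 on the recovered reads, a pseudocount of 0.1, no filter, a mean of at least 10, a replicate block, each sample left out, replicate 3 of both groups left out, equal library totals and unadjusted p. Nothing in the labels ties samples to separate animals beyond the pools of 3 mice, and p-values measure the spread between samples.

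The members and gene lists were chosen with earlier results of these data known. Genes were named by rule: members called by limma, edgeR or DESeq2, members without overlap, all Timp genes, the 4 Mmp, Adam and Adamts genes with the highest means, and up to 6 called related genes. Other genes were named after their values were seen. Coordinates are from GENCODE M21 (GRCm38).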

Additional observations from a re-analysis of the deposited data

Results flagged for a closer look

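Samples far from the rest of their group, by Dixon's test at the 95% level, were found in 5 of the 42 groups of 4 values checked. Chance alone marks about 1 in 20 groups of 4 values that were not picked by their values. Some genes checked here, Mmp3, Mmp9 and Mmp13 among them, had been chosen after their values were seen. The count of flagged groups therefore cannot be set against that share. Adam15 read 162.8 in p16 replicate 4, where the other p16 samples lay between 115.9 and 123.2. Adamts9 read 31.9 in control replicate 1, against 21.8 to 22.9 in the other controls. Mmp9 read 16.7 in control replicate 3, against 1.3 to 3.0 in the other controls, and 12.4 in p16 replicate 3, against 1.6 to 2.4 in the other p16 samples. Mmp13 read 10.6 in p16 replicate 3, against 0.0 to 0.8 in the others of its group. The 3 values of Mmp9 and Mmp13 all belong to replicate 3, whose labels word the library protocol differently, and the part of that wording in these values was not tested.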

How the results depend on the processing

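Over 17 named members and 17 alternative settings, 254 of 279 values kept direction and side of the threshold. Only Timp2 and Timp3 were called as reported, so for the other named members this means staying uncalled. Of the remaining values, 10 changed sign, 9 newly passed the threshold and 6 lost a call, and these 6 were all of Timp3. Members called higher numbered 1 as reported, 0 with DESeq2, 2 with the replicate block, 0 without replicate 3 of both groups, 4 by unadjusted p, and 0 to 3 with 1 sample left out. Without control replicate 3 the 1 member called higher was Adam8 and not Timp3. Members called lower numbered 1, 2 by unadjusted p, and 1 to 2 with 1 sample left out. Related genes called higher numbered 3, 6 with the replicate block, 14 by unadjusted p and 2 to 5 with 1 sample left out, and those called lower 3, 1 without replicate 3 of both groups, 8 by unadjusted p and 0 to 3 with 1 sample left out. The cause was not tested.

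Estimates that changed sign belonged to genes that were not called, and are log2 fold changes. Adamts9 was at 0.0221 with edgeR and 0.0374 with DESeq2. With 1 sample left out, Adamts9 ranged from -0.394 to 0.301 (highest without p16 replicate 4), Mmp15 from -0.183 to 0.0193 (without p16 replicate 2), Mmp17 from -0.212 to 0.0669 (without control replicate 2, and above 0 also without control replicate 4 or p16 replicate 3), and Adam10 from -0.137 to 0.145 (without p16 replicate 4, and above 0 also without control replicate 3).

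With the replicate number as a block, Mmp2 was called (adjusted p = 0.0376) beside Timp3 (0.00549) and Timp2 (0.00302), all by limma. Samples that share a number correlated between 0.004 and 0.083 in their deviations from the group means. Control replicates 3 and 4 correlated best with the p16 sample of their own number (0.046 and 0.083). Control replicate 1 was at 0.055 with p16 replicate 1 and 0.057 with p16 replicate 2. Control replicate 2 was at 0.058 with p16 replicate 1 and 0.004 with p16 replicate 2. These low values do not settle which samples shared one of the 3 experiments, and the reported fit used no block. Depth limited the 8 tested members with fewer than 30 reads in all, and edgeR's filter kept 15 of the 32.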

Other observations

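Of the 342 genes whose values in replicate 3 of both groups exceeded the other 6 samples, Mmp9 and Mmp13 ranked 6 and 7 by the log2 ratio of the means, and Mmp3 ranked 19. Krt6b, a keratin of activated epidermis, ranked 1 and read 4.5, 1.3, 181.2 and 39.7 in the controls and 6.4, 10.9, 82.5 and 8.2 in the p16 samples. Krt16, its usual companion, ranked 11 and read 106.8, 101.4, 570.4 and 195.6 in the controls and 79.2, 80.4, 203.9 and 112.6 in the p16 samples. Sprr2h, of the cornified envelope, and Stfa2, a cysteine protease inhibitor, ranked 9 and 8. These genes were picked after their values were seen and are given as a description. Without replicate 3 of both groups the adjusted p of Mmp3, Mmp9 and Mmp13 between p16 and control samples was 0.971, 1.00 and 0.895 by limma.

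p16 replicate 4 was the lowest of its group at 11 of the 32 tested members, and at 32.0% of all genes tested. Mmp2, Adam10 and Adamts9 were among them, and Adam15 and Adamts14 were highest there.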
